A study of Mus musculus with 107 samples.

Results

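CT26.WT and MC38 are the colorectal cancer models among the 12 mouse syngeneic tumor models of the study, and their untreated tumors were compared here gene by gene. The tumors were chosen by their labels as treatment-naive: 3 CT26.WT tumors (replicates 1, 2 and 3) and 2 MC38 tumors (replicates 2 and 3), which are 5 of the 35 treatment-naive tumors and of the 107 tumors in all. CT26.WT cells were grown in BALB/cAnNCrlCrlj mice and MC38 cells in C57BL/6NCrl mice. All hosts were female and 7 weeks old when the cells were placed under the skin of the right flank, and the tumors were collected at about 100 mm3 with no drug given. A further 6 untreated tumors, collected on day 8 after that size was reached (NT, no treatment), comprised CT26.WT replicates 1, 3 and 5 and MC38 replicates 2, 3 and 4, and were used as a check in separate tumors.

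Each model is a single cell line in a single host strain, so the cell line and the host strain cannot be told apart within this pair. CT26 is a chemically induced colon carcinoma line of the BALB/c strain, and MC38 is a chemically induced colon adenocarcinoma line of the C57BL/6 strain. Both are widely used to study immune checkpoint blockade in hosts with an intact immune system. A piece of such a tumor holds cancer cells, infiltrating leukocytes, vessels, fibroblasts and sometimes skin or muscle of the host, and bulk RNA mixes them all. In bulk tumors, fewer cells of a type and less RNA per cell cannot be told apart.

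The unit was TPM, the abundance of a gene's transcripts relative to all transcripts, and TPM values sum to an equal total in each tumor and account for gene length, so that levels can be compared between genes. In the text, the TPM of the CT26.WT tumors (replicates 1, 2 and 3) are set against those of the MC38 tumors (replicates 2 and 3), in that order. TPM keep no sequencing depth, and the depth behind each value is unknown. In the 5 treatment-naive tumors 49.7% to 60.6% of the TPM came from protein-coding genes, and the most abundant transcript was Rn7sk or Rn7s1, both small non-coding RNAs, in all 5. Over the genes tested, Pearson's r of log2(TPM + 1) between tumors, given as a description across genes that share libraries, was 0.951 to 0.977 within a group (10 pairs). It was 0.951 to 0.968 between the times of 1 model (15 pairs) and 0.829 to 0.861 between the models (30 pairs). Xist was between 25.7 and 41.7 TPM in the 5 tumors and Uty was at most 0.03 TPM, as in female tissue.

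Differences are given on the log2(TPM + 1) scale as CT26.WT minus MC38, with the standard error (SE), and this scale understates the change of low genes. Adjusted p-values come from limma with Benjamini-Hochberg adjustment over the 16502 genes with a mean of at least 1 TPM. A gene was called when its adjusted p was under 0.05 and its difference was at least 1 in size. By this rule 1522 genes (9.22%) were higher in CT26.WT and 1788 genes (10.8%) were higher in MC38, and the median difference over all genes tested was -0.10. A gene with a mean under 1 TPM in 1 model was tested only through its level in the other, so the shares of lists with many such genes are partly set by this minimum and are given as descriptions. The p-values measure the spread between the tumors of a group, and nothing in the labels says more about their origin than that each is a separate sample. With 3 tumors against 2, an exact permutation test cannot go below a p of 0.1, so no such test was run.

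The protein-coding gene with the largest difference toward CT26.WT was Baiap2l1, which encodes an adaptor of actin and membrane curvature (chr5:144264526-144358112 on the minus strand, GRCm38). Its level was 482, 417 and 473 against 1.51 and 2.04 TPM, a log2 difference of 7.37 ± 0.14 (SE, adjusted p = 1.25e-05). The 15 treatment-naive tumors of the 5 other BALB/c models held between 1.71 and 11.2 TPM and the 6 tumors of the C57BL/6 models B16-F10 and LL/2 between 1.31 and 9.32 TPM. The 3 CT26.WT tumors stood above all of these 21 tumors. Esm1, a secreted proteoglycan of activated endothelium that some tumor cells also make, was at 189, 111 and 117 against 1.26 and 0.75 TPM (6.10 ± 0.26, adjusted p = 7.21e-05), with at most 3.32 TPM in the other BALB/c tumors and 6.94 TPM in the B16-F10 and LL/2 tumors. Amigo2, an adhesion molecule, was at 87.6, 79.8 and 115 against 0.45 and 0.28 TPM (6.11 ± 0.18, adjusted p = 3.56e-05). Rarres1, a retinoid-induced membrane protein, Zfpm2, a cofactor of GATA factors, and Krt20, a keratin of intestinal and urothelial epithelium, were also among the 15 protein-coding genes with the largest difference toward CT26.WT.

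Toward MC38, the protein-coding gene with the largest difference was Prl2c2, which encodes the prolactin family hormone proliferin (chr13:12996125-13005383 on the minus strand, GRCm38). It was at 1.03, 0 and 0 against 1046 and 691 TPM (-9.39 ± 0.36, adjusted p = 6.34e-05). Its near-identical relative Prl2c3 was at 0, 0.31 and 0 against 127 and 83.6 TPM (-6.57 ± 0.23, adjusted p = 6.03e-05), and since RSEM divides reads between such copies, the split between the family members is uncertain. Both genes were near 0 in every CT26.WT tumor, and Prl2c2 reached 456 TPM in the other BALB/c tumors and 6.99 TPM in the B16-F10 and LL/2 tumors. The 15 genes with the largest difference toward MC38 also held Fmr1nb, Tex13b and Xlr3c. Fmr1nb, a cancer-testis antigen, was listed at 0 in all 3 CT26.WT tumors and at 52.9 and 53.9 TPM in MC38 (adjusted p = 2.68e-05). Tex13b was at 0.05, 0 and 0 against 93.7 and 71.1 TPM (-6.34 ± 0.16, adjusted p = 2.79e-05), and Xlr3c at 0.06, 0 and 0 against 37.5 and 30.2 TPM. These 3 genes were at or near 0 in CT26.WT. Wfdc2, a secreted protease inhibitor, was at 0, 0.25 and 0 against 71.6 and 57.2 TPM (-5.91 ± 0.18, adjusted p = 3.61e-05). Padi4, which converts protein arginine to citrulline and is best known from neutrophils, was at 0.16, 0.50 and 0.98 against 53.9 and 44.1 TPM (-5.04 ± 0.25, adjusted p = 0.000114).

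**Figure D1:**
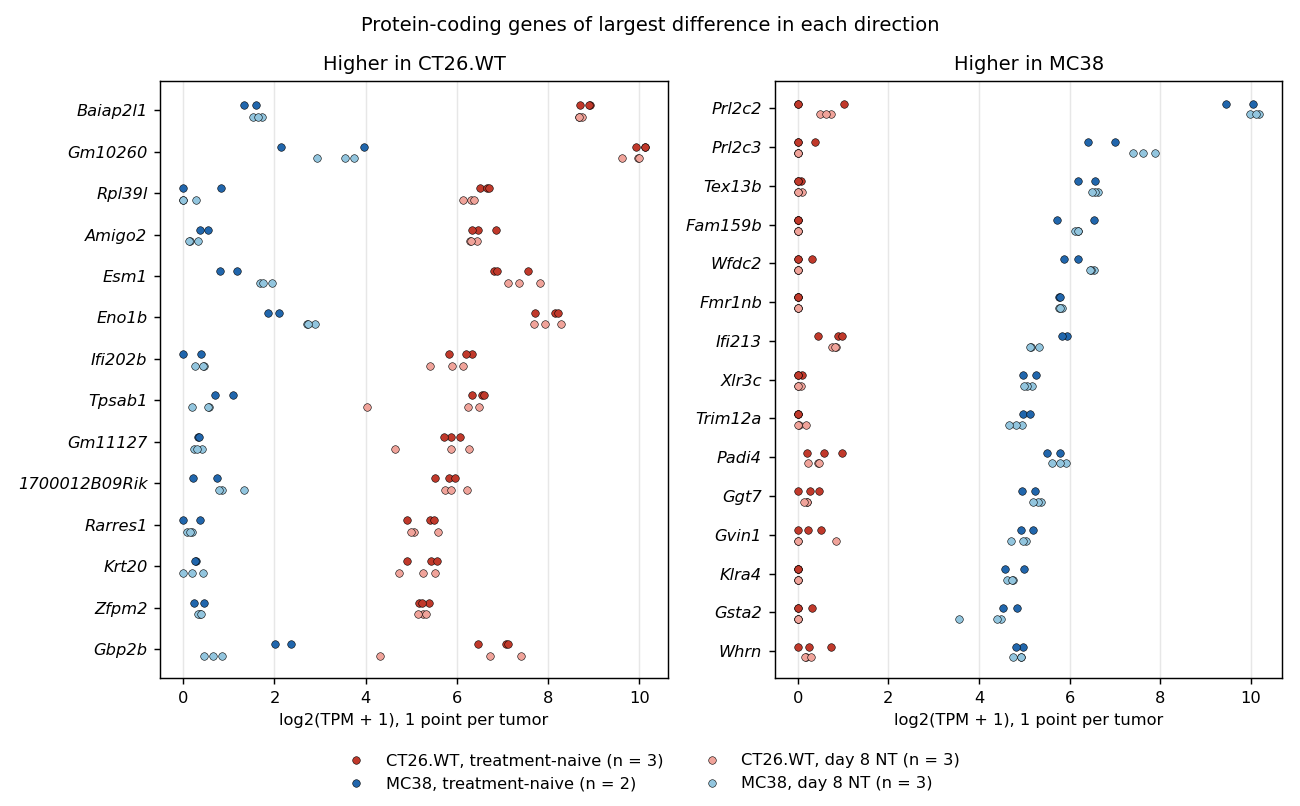
Level of 29 protein-coding genes from the 15 with the largest difference in each direction (14 toward CT26.WT and 15 toward MC38), as log2(TPM + 1) with 1 point per tumor, in treatment-naive (dark) and day 8 NT (pale) tumors of CT26.WT (red) and MC38 (blue). The models are separate for all 29 genes drawn, at the treatment-naive time and at day 8.

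Among the genes with the largest difference toward CT26.WT are Gm10260, Eno1b and Rpl39l, copies of much used genes, and their values depend on how the reads were divided. Gm10260, a copy of the ribosomal protein gene Rps18, was at 1115, 979 and 1112 against 14.7 and 3.45 TPM (7.00 ± 0.49). Rps18 itself was at 1174, 1086 and 1236 against 1732 and 1321 TPM and was not called. Eno1b, a copy of the enolase gene Eno1, was at 283, 210.1 and 297 against 3.26 and 2.6 TPM, beside 1202, 863 and 1203 against 1034 and 872 TPM for Eno1. Rpl39l, the paralog of the ribosomal protein gene Rpl39, was at 90.2, 101 and 104 against 0.77 and 0 TPM, beside 879, 756 and 776 against 603 and 390.2 TPM for Rpl39. None of these 3 parent genes was called (log2 differences of -0.38, 0.18 and 0.72).

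Genes that define the colon epithelium were nearly absent from both models. Of 20 such genes only 3 reached a mean of 1 TPM, and 16 were under 1 TPM in all 5 tumors. Among these were the intestinal master regulator Cdx2 (0.13, 0.17 and 0.07 against 0 TPM in both) and the brush border gene Vil1 (0.32, 0.24 and 0.26 against 0.82 and 0.46 TPM). The stem cell receptor gene Lgr5 was at 0.02, 0.03 and 0.02 against 0.23 and 0.35 TPM. The mucin gene Muc2, the main product of goblet cells, was at 0.61, 0.14 and 0.12 against 0.52 and 1.17 TPM. Of the 3 genes tested 2 were higher in CT26.WT, Krt20 at 42.1, 29.03 and 46.6 against 0.22 and 0.20 TPM (5.03 ± 0.22, adjusted p = 7.21e-05) and the galectin gene Lgals4. The level of Lgals4 was 6.21, 6.76 and 5.96 against 1.76 and 2.39 TPM (1.26 ± 0.16, adjusted p = 0.00209). Apart from the 3 genes tested, the markers that define colonic epithelium were absent or low.

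The general epithelial genes were low as well, with 5 of 20 tested and 8 under 1 TPM in all 5 tumors. Cdh1, the epithelial cadherin, was at 0.96, 0.78 and 0.71 against 1.38 and 1.25 TPM, and the adhesion molecule Epcam at 0.05, 0.08 and 0 against 1.02 and 1.17 TPM. The genes higher in MC38 were 2 keratins of simple epithelium, Krt19 and Krt8. Krt19 was at 0.79, 0.43 and 0.11 against 4.04 and 11.02 TPM (-2.46 ± 0.42, adjusted p = 0.00561). Krt8 was at 0.05, 0.26 and 0 against 3.48 and 3.1 TPM (-1.96 ± 0.23, adjusted p = 0.00175), and its call was lost without either MC38 tumor. Of 12 keratinocyte (skin) genes 5 were tested, and all 5 were called higher in MC38. This count carries no weight, as Krt1, Krt5 and Krt14 had a mean under 1 TPM in CT26.WT and, like Krt8 and Krt19, were tested only through MC38. The epidermal keratin Krt1 was listed at 0 in the 3 CT26.WT tumors and at 9.68 and 13.8 TPM in MC38. The basal keratin Krt14 was at 0, 0 and 0.16 against 3.26 and 9.42 TPM (-2.66 ± 0.40, adjusted p = 0.00367; the call was lost without MC38 replicate 3). The summed level of the 12 skin genes was 3.08 to 6.38 TPM in CT26.WT and 46.5 and 60.6 TPM in MC38, and 4 of the 12 were under 1 TPM in all 5 tumors. At day 8 that sum was 18.9, 4.29 and 2.35 TPM in CT26.WT and 28.9, 11.4 and 12.9 TPM in MC38, and Krt8 and Krt19 had too low a mean to be tested. The part of host skin in the keratin difference was not tested.

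Mesenchymal genes were expressed in both models, and most of those called were higher in CT26.WT. All 16 genes of the list were tested, of which 8 were higher in CT26.WT, 1 in MC38 and 7 were not called, with a median difference of 1.00 beside -0.10 over all genes. S100a4, a calcium-binding protein of motile mesenchymal cells, was at 2306, 2182 and 2845 against 336 and 204 TPM (3.21 ± 0.26, adjusted p = 0.000457). The transcription factor gene Prrx1 was at 98.6, 96.1 and 103 against 16.9 and 17.5 TPM (2.46 ± 0.10, adjusted p = 6.86e-05), and Cdh2, which encodes N-cadherin, at 22.3, 19.8 and 22.01 against 5.56 and 3.08 TPM (2.11 ± 0.22, adjusted p = 0.00106). Each CT26.WT tumor was above both MC38 tumors for these 3 genes. Vim, the intermediate filament of mesenchymal cells and the most abundant called gene of any list, was at 3046, 2778 and 3480.0 against 1381 and 1663 TPM (1.03 ± 0.20, adjusted p = 0.00895). Its call was lost without CT26.WT replicate 3 or MC38 replicate 2. Fn1, Zeb1, Snai2 and Axl were the other members higher in CT26.WT, and Snai1, an inducer of the mesenchymal state like Snai2, was the 1 member higher in MC38. Cd44 (147, 144 and 156 against 191 and 137 TPM) and Zeb2 (103, 108 and 95.3 against 76.7 and 91.2 TPM) were not called. Fibroblasts of the host also express most of these genes, and their part in the levels was not tested.

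The MAPK pathway carries growth signals from receptors through RAS, RAF and MEK to the kinase ERK, and active ERK induces its own inhibitors, so that their transcripts are often read as pathway output. Of 22 such genes 20 were tested, of which 9 were higher in CT26.WT and 0 in MC38, with a median difference of 0.91. The feedback inhibitor gene Spry4 was at 42.9, 47.1 and 50.7 against 3.78 and 2.81 TPM (3.49 ± 0.15, adjusted p = 7.1e-05). The other BALB/c tumors held 3.07 to 5.74 TPM of it and the B16-F10 and LL/2 tumors 6 to 38.1 TPM, so that the level in CT26.WT was above all of these tumors and that in MC38 below the other C57BL/6 tumors. Among the ERK-induced transcription factors, Egr1 was at 76.9, 71.01 and 81.3 against 15.98 and 10.6 TPM (2.46 ± 0.18, adjusted p = 0.00036). Etv1 was at 34.8, 29.1 and 35.02 against 6.58 and 4.52 TPM (2.39 ± 0.18, adjusted p = 0.000355). Of the phosphatases that switch ERK off, 2 of the 3 listed were higher, Dusp6 at 94.7, 117 and 114 against 42.2 and 33.7 TPM (1.49 ± 0.16) and Dusp4 at 48.6, 39.7 and 51.1 against 13.4 and 13.98 TPM (1.68 ± 0.14). The third, Dusp5, was at 10.4, 9.67 and 10.5 against 14.99 and 13.3 TPM and was not called (-0.44 ± 0.12). Among the 11 members that were not called, Fosl1 was at 68.7, 54.7 and 73.9 against 73.2 and 61.2 TPM (-0.04 ± 0.17, adjusted p = 0.877). At day 8, 6 of 21 were higher in CT26.WT and 1 in MC38, or 8 and 0 after rescaling to protein-coding genes.

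Of the ligands of receptor kinases, 8 of 18 tested were higher in CT26.WT and 2 in MC38. Of the 8, 4 (Tgfa, Btc, Fgf1 and Fgf10) had a mean under 1 TPM in MC38 and were tested only through CT26.WT. Epiregulin (Ereg), a ligand of the EGF receptor, was at 18.8, 17.7 and 18.9 against 4.54 and 2.43 TPM (2.16 ± 0.21, adjusted p = 0.000974). Betacellulin (Btc), a ligand of the same receptor, was at 10.4, 5.87 and 5.87 against 0.28 and 0.33 TPM (2.64 ± 0.27, adjusted p = 0.00103). Hbegf, Tgfa and neuregulin 1 (Nrg1, 33.5, 26.96 and 22.7 against 5.69 and 5.78 TPM) were also higher in CT26.WT. Fgf10, a ligand of FGF receptor 2, was at 8.84, 7.25 and 7.44 against 0.70 and 0.77 TPM (2.35 ± 0.16, adjusted p = 0.000271). Hgf, the ligand of the receptor Met, went the other way with 1.35, 1.72 and 1.67 against 14.3 and 11.4 TPM (-2.42 ± 0.17, adjusted p = 0.000298). Met itself was higher in CT26.WT with 28.7, 29.9 and 29.4 against 10.96 and 10.4 TPM (1.38 ± 0.10, adjusted p = 0.000385).

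The receptors were split, with 3 of 18 tested higher in CT26.WT and 4 in MC38. Fgfr1, one of the kinases that lenvatinib inhibits, was at 38.5, 38.9 and 34.3 against 139 and 147 TPM (-1.91 ± 0.11, adjusted p = 0.000199). Its relative Fgfr3 was at 0.25, 0.32 and 0.30 against 3.79 and 6.07 TPM (-2.17 ± 0.24, adjusted p = 0.00136), also higher in MC38. Egfr, the receptor for several of the ligands above, was at 1.16, 2.46 and 1.09 against 5.63 and 10.4 TPM (-1.80 ± 0.33, adjusted p = 0.00759), and its call was lost without MC38 replicate 3. Igf1r, the receptor of insulin-like growth factors, was higher in CT26.WT with 37.95, 38.5 and 34.9 against 11.2 and 11.1 TPM (1.65 ± 0.11, adjusted p = 0.000265). The collagen receptor gene Ddr2 (97.5, 113 and 112 against 87.8 and 82.6 TPM) and the pericyte and fibroblast receptor gene Pdgfrb (20.6, 28.2 and 21.9 against 9.91 and 13.4 TPM) were not called.

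Wnt signaling drives most colorectal cancers through beta-catenin. Of 19 target genes 10 were tested, of which 3 were higher in CT26.WT and 2 in MC38. At day 8, 1 of 9 was higher in CT26.WT and 2 in MC38, or 1 in each after rescaling to protein-coding genes. Dkk2, a secreted inhibitor of the pathway, was at 15.3, 10.04 and 13.1 against 0.06 and 0.12 TPM (3.65 ± 0.20, adjusted p = 0.000159). Tcf7, a transcription factor of the pathway and of T cells, was at 1.49, 2.43 and 1.19 against 8.43 and 8.87 TPM (-1.86 ± 0.23, adjusted p = 0.00181). Apcdd1 was higher in MC38 (-1.12 ± 0.25) and Sox4 in CT26.WT (1.08 ± 0.18), and both calls depended on single tumors. That of Apcdd1 was lost without CT26.WT replicate 2 or MC38 replicate 2, and that of Sox4 without CT26.WT replicate 1 or MC38 replicate 3. Myc was at 62.3, 64.4 and 62.5 against 85.3 and 79.6 TPM and was not called (-0.38 ± 0.10, adjusted p = 0.0289).

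The Cdkn2 locus, which encodes cell cycle brakes and is deleted in many tumor lines, was under 1 TPM in CT26.WT. Cdkn2a was at 0.83, 0.38 and 0.44 against 5.68 and 5.45 TPM (-2.09 ± 0.21, adjusted p = 0.000992). Cdkn2b was at 0.29, 0.29 and 0.25 against 5.01 and 6.01 TPM (-2.35 ± 0.19, adjusted p = 0.000518). Their neighbor Mtap was expressed in both models (71.4, 75.6 and 83.8 against 125 and 82.3 TPM) and was not called. Of the 23 genes of p53 and its targets with this locus, 2 were higher in CT26.WT and 6 in MC38. Of the 6, 4 (Gdf15, Perp, Cdkn2a and Cdkn2b) had a mean under 1 TPM in CT26.WT and were tested only through MC38. Gdf15, a stress-induced cytokine and p53 target, was at 0.29, 0.47 and 0.19 against 18.1 and 11.3 TPM (-3.55 ± 0.24, adjusted p = 0.000286). The main p53 targets Cdkn1a (72.01, 58.5 and 69.1 against 49.9 and 52.3 TPM) and Mdm2 (72.1, 50.5 and 59.03 against 31.1 and 37.7 TPM) and Trp53 itself (74.05, 75.8 and 93.6 against 119.7 and 89.03 TPM) were not called.

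Of the cell cycle genes, 1 of 23 was higher in CT26.WT and 1 in MC38. Foxm1, a transcription factor of mitotic genes, was at 91.8, 92.2 and 107 against 45.99 and 43.9 TPM (1.09 ± 0.12, adjusted p = 0.00136). Rrm2, a subunit of ribonucleotide reductase, was at 61.2, 61.02 and 90.5 against 173 and 150.0 TPM (-1.20 ± 0.21, adjusted p = 0.0059), and its call was lost without MC38 replicate 2. Of 11 mismatch repair and replicative polymerase genes tested, 2 were called. Exo1, the exonuclease of mismatch repair, was higher in MC38 with 13.6, 16.9 and 19.5 against 69.5 and 52.7 TPM (-1.81 ± 0.19, adjusted p = 0.00121). Mlh3, a MutL homolog, was higher in CT26.WT with 5.91, 5.81 and 6.55 against 1.93 and 1.9 TPM (1.28 ± 0.14, adjusted p = 0.00131).

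Hox genes carry the positional identity that a cell received in the embryo, and low-numbered genes of a cluster mark anterior and high-numbered genes posterior levels. Of 39 genes 26 were tested, of which 10 were higher in MC38 and 1 in CT26.WT, with a median difference of -0.65. Of the 10, 8 had a mean under 1 TPM in CT26.WT. Hoxd13 was at 0, 0.03 and 0 against 14 and 7.32 TPM (-3.47 ± 0.29, adjusted p = 0.000516). Hoxd9 was at 0.36, 0.29 and 0.70 against 7.16 and 7.55 TPM (-2.54 ± 0.20, adjusted p = 0.000462), and Hoxc10 at 0, 0.33 and 0.48 against 5.24 and 5.64 TPM (-2.36 ± 0.24, adjusted p = 0.00109). Hoxa11 was listed at 0 in all 3 CT26.WT tumors and at 3.93 and 3.38 TPM in MC38 (adjusted p = 0.000966; the call was lost without either MC38 tumor). The genes higher in MC38 came from all 4 clusters (Hoxa7, Hoxa11, Hoxb6, Hoxb7, Hoxb8, Hoxc9, Hoxc10, Hoxd9, Hoxd10 and Hoxd13), and each carried a number of 6 or above. Hoxc6 was the 1 member higher in CT26.WT, with 27.6, 31.4 and 26.2 against 9.35 and 11.6 TPM (1.36 ± 0.14, adjusted p = 0.00121). It also separated the other BALB/c tumors (3.46 to 30.7 TPM) from the other C57BL/6 tumors (0.45 to 2.2 TPM). In the day 8 tumors 13 of 26 were higher in MC38 and 1 in CT26.WT, or 10 and 1 after rescaling to protein-coding genes.

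**Figure D2:**
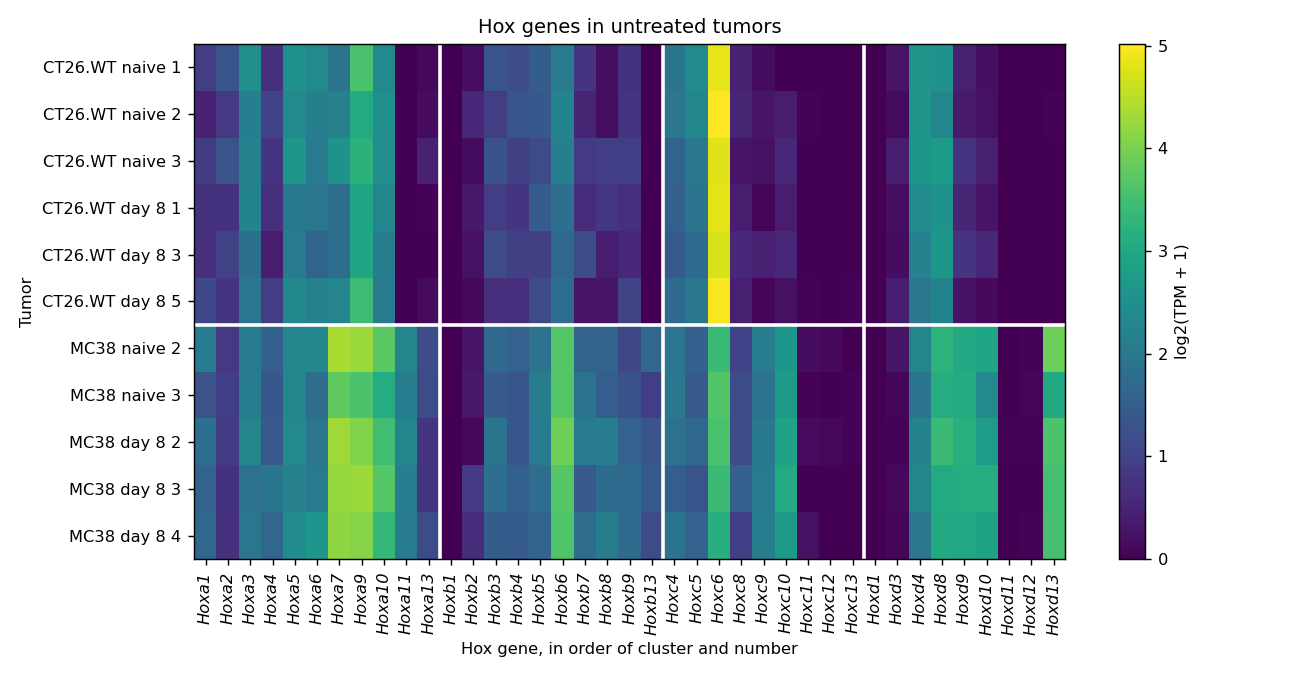
Level of the 39 Hox genes (columns, by cluster A to D) in the 11 untreated tumors (rows, CT26.WT above the horizontal white line and MC38 below), as log2(TPM + 1) by color. Hoxc6 is the brightest column in the 6 CT26.WT tumors, and Hoxa7, Hoxb6 and Hoxd13 are brighter in the 5 MC38 tumors.

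Interferon-stimulated genes (ISGs) were the list with the highest number of called genes. Type I interferon acts through transcription factors that bind an interferon-stimulated response element near the start of antiviral genes. All 30 ISGs were tested, of which 23 were higher in MC38, 2 in CT26.WT and 5 were not called, with a median difference of -1.44 beside -0.10 over all genes. RefSeq promoters (GRCm38.p6, from 250 bases before to 50 after the start) were found for 21 of the 30 by symbol. The motif searched was GAAA, then 2 bases of any kind, then GAAA again (TTTC in place of GAAA on the other strand), with overlapping matches counted. It was in 12 of these 21 promoters (57.1%) and in 3.99% of the 27025 genes with a promoter. Among the 16 genes higher in MC38 that had a promoter, 11 held it. The promoters of the 4 holders of the motif with the largest difference are shown for the letters that these genes share, with the motif in capitals, each 5′ to 3′ on the strand of the gene.
Rsad2: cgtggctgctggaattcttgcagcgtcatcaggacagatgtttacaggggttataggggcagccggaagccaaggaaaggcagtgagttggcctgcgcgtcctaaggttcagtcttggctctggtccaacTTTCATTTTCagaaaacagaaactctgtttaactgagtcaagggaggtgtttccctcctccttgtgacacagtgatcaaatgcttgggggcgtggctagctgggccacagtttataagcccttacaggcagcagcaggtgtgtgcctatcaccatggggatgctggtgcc
Ifit1bl1: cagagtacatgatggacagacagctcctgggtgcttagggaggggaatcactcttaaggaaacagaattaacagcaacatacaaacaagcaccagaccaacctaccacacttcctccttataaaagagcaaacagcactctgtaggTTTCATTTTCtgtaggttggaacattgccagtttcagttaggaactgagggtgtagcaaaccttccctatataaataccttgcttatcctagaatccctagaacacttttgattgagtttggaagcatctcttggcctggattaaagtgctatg
Isg15: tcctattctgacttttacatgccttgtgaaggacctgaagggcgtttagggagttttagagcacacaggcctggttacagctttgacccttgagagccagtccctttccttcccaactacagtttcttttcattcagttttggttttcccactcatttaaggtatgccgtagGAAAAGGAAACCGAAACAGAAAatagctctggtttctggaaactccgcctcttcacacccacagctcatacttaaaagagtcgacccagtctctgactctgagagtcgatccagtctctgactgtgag
Ifit3: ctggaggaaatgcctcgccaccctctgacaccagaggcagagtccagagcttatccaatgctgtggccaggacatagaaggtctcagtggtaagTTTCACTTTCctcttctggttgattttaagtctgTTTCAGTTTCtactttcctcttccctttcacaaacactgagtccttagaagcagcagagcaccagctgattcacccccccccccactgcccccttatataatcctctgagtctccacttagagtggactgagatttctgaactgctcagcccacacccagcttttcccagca
These windows lie at chr12:26456403-26456702 (Rsad2, minus strand), chr19:34601919-34602218 (Ifit1bl1, minus), chr4:156200769-156201068 (Isg15, minus) and chr19:34583279-34583578 (Ifit3, plus). The motif occurs 1 time in each of the first pair, 3 times in Isg15, where matches overlap, and 2 times in Ifit3. A match describes the letters only and not the binding of a factor.

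Rsad2, the antiviral enzyme viperin and the first of these promoters, was at 7.08, 9.38 and 5.94 against 192 and 174 TPM (-4.46 ± 0.19, adjusted p = 7.1e-05). Among the 15 other BALB/c tumors its highest level was 19.7 TPM and among the 6 B16-F10 and LL/2 tumors 13.6 TPM, so that MC38 stood apart from these 21 tumors as well. Isg15, a ubiquitin-like protein that is attached to other proteins, was at 70.0, 83.3 and 54.1 against 471 and 343 TPM (-2.54 ± 0.23, adjusted p = 0.000684). Ifit1bl1 was at 1.19, 1.22 and 1.52 against 20.4 and 14.97 TPM (adjusted p = 0.000207). Its relative Ifit3, which is part of complexes of IFIT proteins that bind viral RNA, was at 25.1, 34.2 and 17.8 against 148 and 109 TPM (-2.31 ± 0.28). The lowest MC38 value was above the highest CT26.WT value for each of these genes. Bst2, the membrane tether of budding virus, was the most abundant ISG called, with 274, 237 and 196 against 749 and 539 TPM (-1.44 ± 0.21, adjusted p = 0.00349). Irf7, a transcription factor that induces interferon genes, was at 108, 131 and 84.5 against 161 and 147 TPM (-0.53 ± 0.20, adjusted p = 0.0748) and was not called. The 2 members higher in CT26.WT were Ifi27l2a (304, 355 and 226 against 179 and 105 TPM, 1.08 ± 0.29) and Ifi202b (79.3, 72.5 and 56.1 against 0.30 and 0 TPM, 5.93 ± 0.20). The call of Ifi27l2a was lost without CT26.WT replicate 1 or 2 or MC38 replicate 3. Ifi202b also separated the other BALB/c from the other C57BL/6 tumors. At day 8, 26 of 30 were higher in MC38 and 1 in CT26.WT, or 25 and 2 after rescaling to protein-coding genes.

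**Figure D3:**
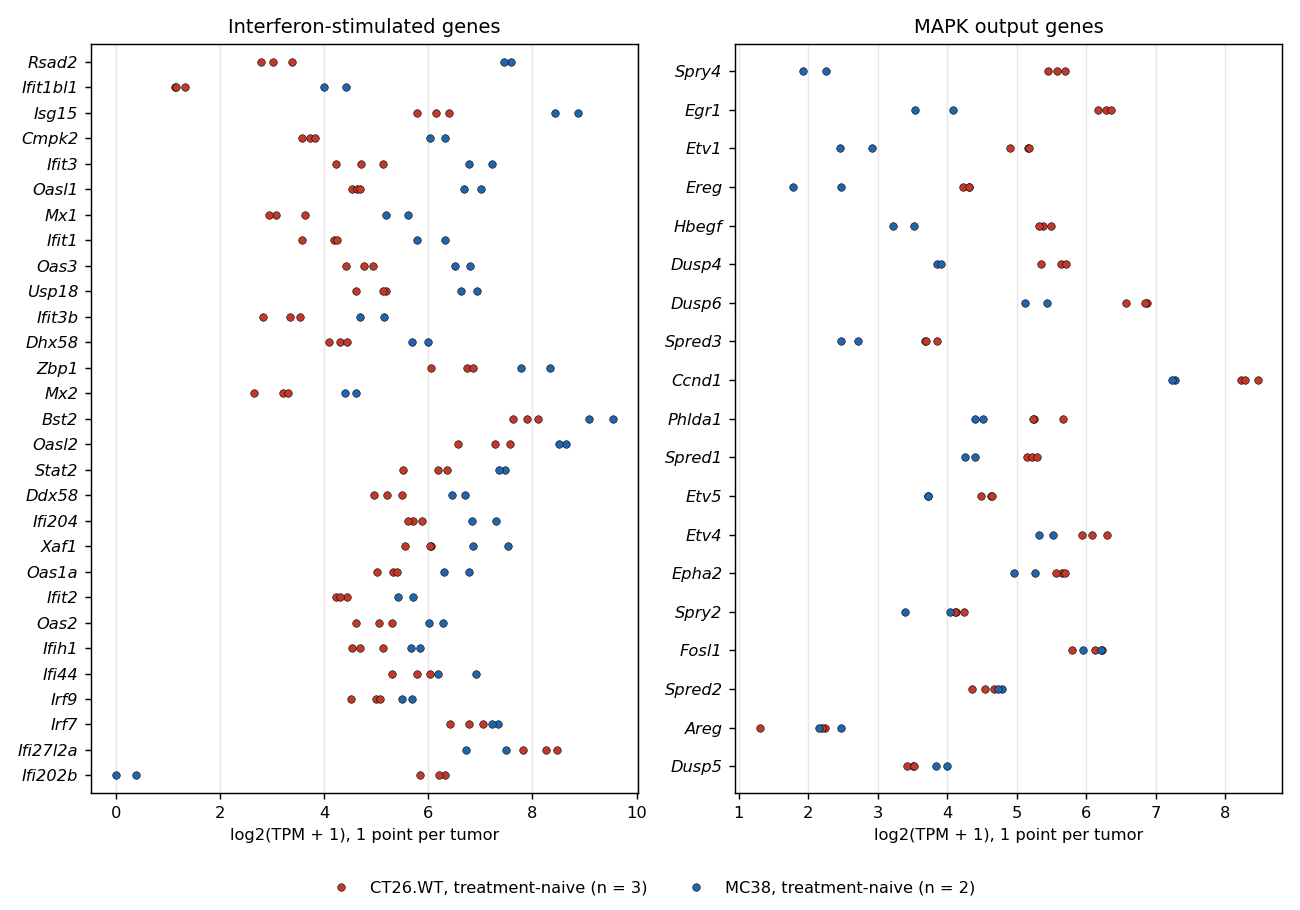
Level of 29 ISGs (left) and 19 tested MAPK output genes (right) in treatment-naive tumors, as log2(TPM + 1) with 1 point per tumor, for CT26.WT (red) and MC38 (blue), ordered by the difference. MC38 is to the right of CT26.WT for 27 of the 29 ISGs drawn, and CT26.WT is to the right for the 9 MAPK output genes called.

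Genes of the interferon gamma axis, the T and NK cell cytokine that raises antigen presentation, were higher in MC38 for 7 of 22 members and in CT26.WT for 0, with a median difference of -0.43. At day 8, 4 of 21 were higher in MC38 and 0 in CT26.WT, or 2 and 0 after rescaling to protein-coding genes. The T cell attractant gene Cxcl10, which both kinds of interferon induce, was at 39.96, 57.9 and 40.7 against 939.6 and 516 TPM (-3.91 ± 0.30, adjusted p = 0.000381). Its relative Cxcl9, which depends mainly on interferon gamma, was at 52.8, 83.1 and 45.1 against 71.1 and 64.7 TPM and was not called (-0.21 ± 0.26, adjusted p = 0.539). The tryptophan-degrading enzyme gene Ido1 was at 3.39, 1.92 and 1.47 against 20.4 and 11.2 TPM (-2.35 ± 0.34, adjusted p = 0.00318). Cd274, which encodes PD-L1, was at 22.96, 18.7 and 11.1 against 45.1 and 37.4 TPM (-1.23 ± 0.30, adjusted p = 0.019), and its call was lost without CT26.WT replicate 3 and without either MC38 tumor. Igtp, an interferon-induced GTPase, was at 68.1, 68.5 and 46.5 against 170.3 and 112 TPM (-1.18 ± 0.25, adjusted p = 0.0124), and its call was lost without MC38 replicate 2.

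MHC class I presents peptides of the cell to CD8 T cells. Of 21 genes tested 4 were higher in MC38 and 0 in CT26.WT. H2-K1, a class I heavy chain, was at 369, 344 and 279 against 1488 and 1179 TPM (-2.01 ± 0.19, adjusted p = 0.000806). The non-classical H2-Q7 was at 7.73, 8.83 and 3.98 against 75.98 and 97.3 TPM (-3.53 ± 0.31, adjusted p = 0.000635), and the immunoproteasome subunit gene Psmb10 at 121, 135 and 118 against 536 and 557 TPM (-2.12 ± 0.12, adjusted p = 0.000172). Tap1, a peptide transporter subunit, was at 98.4, 105 and 67.3 against 211 and 176 TPM (-1.11 ± 0.22, adjusted p = 0.00941; the call was lost without CT26.WT replicate 3 or MC38 replicate 2). The light chain gene B2m (1886, 1727 and 1506 against 2453 and 1560.4 TPM) and the heavy chain gene H2-D1 (1057, 972 and 793 against 1348 and 1061 TPM) were not called. BALB/c and C57BL/6 carry different alleles of the H2 genes, and reads were mapped to the C57BL/6J reference, so a lower count of mapped reads and a lower level of an H2 transcript cannot be told apart in CT26.WT.

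Among 11 class II genes tested, 2 were higher in each model. H2-Ea-ps, annotated as a pseudogene in the reference because C57BL/6 mice lack a working E alpha chain, was listed at 0 in both MC38 tumors and at 112, 207 and 61.5 TPM in CT26.WT (adjusted p = 0.000296). H2-DMb2 was higher in CT26.WT with 16.1, 23.1 and 10.2 against 0.47 and 1.91 TPM (3.01 ± 0.41, adjusted p = 0.00262). Its neighbor H2-DMb1 was higher in MC38 with 11.03, 15.2 and 5.18 against 28.5 and 29.9 TPM (-1.51 ± 0.39, adjusted p = 0.0248). The split of reads between this similar pair is uncertain. The call of H2-DMb1 was lost without CT26.WT replicate 1 and without either MC38 tumor. The invariant chain gene Cd74 (477, 678 and 222 against 293 and 466 TPM) and H2-Aa (117, 203 and 57.98 against 126 and 171 TPM) overlapped between the models. Of 9 listed ligands of NKG2D, an activating receptor of NK and T cells, only 5 were found by symbol, and the others could not be compared. The 4 tested went both ways, with 2 higher in each model. Raet1d and Raet1e had a mean under 1 TPM in CT26.WT and H60b in MC38, so these were tested only through the other model. Raet1d was at 0.23 to 6.97 TPM in the other BALB/c and 4.25 to 7.88 TPM in the other C57BL/6 tumors. Raet1e was at 0.68, 0.64 and 0.48 against 15.5 and 5.47 TPM (-2.69 ± 0.39, adjusted p = 0.00342) and Raet1d at 0.75, 0.38 and 0.63 against 11.2 and 6.73 TPM (-2.62 ± 0.25, adjusted p = 0.000902). Ulbp1 was higher in CT26.WT with 55.04, 53.9 and 69.5 against 12.8 and 10.8 TPM (2.24 ± 0.16, adjusted p = 0.00031), as was H60b, whose call was lost without MC38 replicate 2.

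In treatment-naive tumors 6 of 22 macrophage genes were higher in CT26.WT and 2 in MC38, with a median difference of 0.81. At day 8 the counts were 3 and 1 with a median of 0.20, or 6 and 1 with a median of 0.51 after rescaling to protein-coding genes. Mrc1, the mannose receptor of tissue macrophages, was at 43.9, 62.5 and 90.5 against 9.71 and 18.7 TPM (2.14 ± 0.37, adjusted p = 0.00613). Cd163, a scavenger receptor of such cells, was at 6.51, 9.79 and 13.5 against 1.41 and 3.55 TPM (1.67 ± 0.37, adjusted p = 0.0144). Both calls were lost without MC38 replicate 2. Cx3cr1, the fractalkine receptor, was at 9.06, 14.5 and 6.49 against 0.62 and 0.76 TPM (2.64 ± 0.31, adjusted p = 0.00167). Its ligand gene Cx3cl1 was higher in MC38 with 0.86, 0.95 and 1.26 against 14.7 and 10.9 TPM (-2.76 ± 0.19, adjusted p = 0.000301). The broad macrophage genes Adgre1 (19.1, 30.6 and 18.8 against 16.8 and 24.6 TPM) and C1qa (196, 273 and 208 against 126 and 133 TPM) were not called.

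Monocyte and neutrophil genes called in treatment-naive tumors were all higher in MC38. For monocytes these were 5 of 11. The chitinase-like gene Chil3 was at 0.13, 0.32 and 0.33 against 8.08 and 7.18 TPM (-2.78 ± 0.19, adjusted p = 0.000298). The surface antigen gene Ly6c2, which marks inflammatory monocytes, was at 26.8, 28.1 and 24.2 against 131 and 145 TPM (-2.35 ± 0.12, adjusted p = 0.000119). Their homing receptor gene Ccr2 was at 19.7, 36.1 and 22.5 against 21.3 and 22.3 TPM and was not called. For neutrophils 6 of 10 tested were higher in MC38, among them the activation genes Acod1 and Il1b, which macrophages also make. Acod1 was at 7.49, 5.17 and 3.04 against 19.1 and 19.8 TPM (-1.78 ± 0.31, adjusted p = 0.00595), and Il1b at 15.3, 10.2 and 7.07 against 31.3 and 35.5 TPM (-1.60 ± 0.29, adjusted p = 0.00727). Both calls, and that of the neutrophil gene Retnlg, were lost without either MC38 tumor. The granule gene S100a9 (9.97, 5.51 and 1.65 against 9.14 and 12.2 TPM) was not called, and 5 of the 19 neutrophil genes were under 1 TPM in all 5 tumors. At day 8, 3 of 13 neutrophil genes were higher in MC38, or 1 after rescaling to protein-coding genes. Of the 11 monocyte genes 4 were then higher in MC38 and 1 in CT26.WT, or 2 and 1 after rescaling, with a median of -0.49, or -0.21 rescaled.

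Mast cell proteases were higher in CT26.WT. Of 12 mast cell and eosinophil genes 6 were tested and 5 were higher in CT26.WT, with a median difference of 1.62. Tpsab1, a tryptase, was at 79, 92.5 and 95.2 against 0.61 and 1.12 TPM (5.60 ± 0.16, adjusted p = 3.56e-05), and its neighbor Tpsb2 at 32.5, 43.9 and 38.3 against 6.11 and 12.8 TPM (1.98 ± 0.29). As these tryptases are close copies, the split between them is uncertain. The carboxypeptidase gene Cpa3 was at 15.97, 20.04 and 23.4 against 3.79 and 8.21 TPM (1.63 ± 0.30, adjusted p = 0.00797), and the chymase gene Cma1 at 24.2, 32.3 and 27.4 against 5.58 and 12.4 TPM (1.62 ± 0.31, adjusted p = 0.00864). Each CT26.WT tumor was above both MC38 tumors for these 4 genes. The IgE receptor genes Fcer1a (2.93, 3.71 and 3.37 against 1.45 and 1.3 TPM) and Ms4a2 (0.87, 1.04 and 0.80 against 0.20 and 0.20 TPM) were low in both models, with Fcer1a not called and Ms4a2 not tested. At day 8 all 6 genes tested were higher in CT26.WT, but CT26.WT replicate 5 held 15.3 TPM of Tpsab1 against 74.8 and 88.8 TPM in the other two.

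Few T cell genes were called. Of 18 genes of the T cell receptor complex and T cell signaling 1 was higher in MC38, the cytokine receptor gene Il7r (1.86, 2.51 and 1.46 against 8.87 and 9.52 TPM, -1.81 ± 0.19, adjusted p = 0.00122), and 0 in CT26.WT. Cd3e was at 11.02, 10.2 and 3.86 against 5.94 and 6.58 TPM and Cd8a at 5.79, 6.87 and 1.7 against 4.18 and 3.94 TPM, and for both the models overlapped. Of 14 regulatory and checkpoint genes tested 4 were higher in MC38 and 0 in CT26.WT, among them Tnfrsf18, Ikzf2 and Icos, which regulatory T cells express highly. Tnfrsf18 was at 4.55, 2.84 and 2.0 against 8.5 and 9.92 TPM (-1.35 ± 0.27, adjusted p = 0.0105). Ikzf2 was at 2.16, 3.08 and 1.48 against 6.74 and 7.28 TPM (-1.33 ± 0.24, adjusted p = 0.00658), and Icos at 1.26, 1.72 and 1.24 against 4.24 and 3.98 TPM (-1.09 ± 0.18, adjusted p = 0.00533). The calls of Tnfrsf18 and Ikzf2 were lost without either MC38 tumor. That of Il2ra, the other gene called, was lost without CT26.WT replicate 1 or MC38 replicate 3. Foxp3, which defines regulatory T cells, was at 0.75, 1.25 and 1.25 against 2.49 and 2.28 TPM and was not called (-0.71 ± 0.21). At day 8, 2 of 13 regulatory and checkpoint genes were higher in MC38 and 1 in CT26.WT, or 1 and 2 after rescaling to protein-coding genes. The median at day 8 was -0.38, or -0.20 rescaled.

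Of 19 NK and cytotoxic genes tested 4 were higher in MC38 and 0 in CT26.WT. Gzmc, a granzyme, was at 35.3, 15.9 and 17.7 against 226 and 119 TPM (-2.87 ± 0.41, adjusted p = 0.00319). The chemokine gene Ccl5 was at 23.5, 40.1 and 15.8 against 166 and 106 TPM (-2.38 ± 0.40, adjusted p = 0.0053; lost without MC38 replicate 2). Eomes, a transcription factor of NK and CD8 T cells, was at 2.57, 2.39 and 1.63 against 9.85 and 7.61 TPM (-1.61 ± 0.20, adjusted p = 0.00206). Klrb1c, which encodes NK1.1 and is used to mark NK cells in C57BL/6 mice, was at 0.98, 0.58 and 0.37 against 3.53 and 2.9 TPM (-1.37 ± 0.24, adjusted p = 0.00655). The granzyme genes Gzmb (37.1, 27.1 and 20.8 against 104 and 43.01 TPM) and Gzma (43.8, 41.2 and 28.3 against 32.2 and 20.2 TPM) were not called. Of 13 B and plasma cell genes 5 were tested, with 1 higher in CT26.WT and 2 in MC38. Each of these called genes was tested only through the model where it was higher. The 1 higher in CT26.WT was Cr2, whose call was lost without CT26.WT replicate 1 or 3 or either MC38 tumor. Pax5, the B cell transcription factor, was at 0.37, 0.01 and 0.02 against 9.07 and 5.49 TPM (-2.85 ± 0.28, adjusted p = 0.000953). The B cell receptor subunit gene Cd79a was at 0.20, 0.38 and 0.29 against 2.18 and 2.01 TPM, and its call was lost without either MC38 tumor. The antibody genes Ighm (8.01, 21.1 and 7.22 against 5.22 and 7.5 TPM) and Igkc (2.55, 5.22 and 1.4 against 2.42 and 4.1 TPM) were not called. Ms4a1, which encodes the B cell marker CD20, was low in both models (0, 0.32 and 0.06 against 0.21 and 0.02 TPM).

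The 20 genes used as mouse counterparts of the T cell-inflamed profile were higher in MC38 for 5 (Ccl5, Cd274, H2-K1, Ido1 and Psmb10) and in CT26.WT for 0, with a median difference of -0.41. Of the secreted factors that draw or feed myeloid cells, 4 of 20 tested were higher in CT26.WT and 7 in MC38. Ccl12 was at 86.3, 82.3 and 134 against 37.6 and 24.3 TPM (1.67 ± 0.28, adjusted p = 0.00534) and the cytokine gene Il11 at 4.85, 5.22 and 3.88 against 1.27 and 0.58 TPM (1.57 ± 0.23, adjusted p = 0.00327). Ccl4, an attractant of monocytes and T cells, was higher in MC38 with 5.9, 9.24 and 4.49 against 24.1 and 22.8 TPM (-1.75 ± 0.26, adjusted p = 0.00383; lost without MC38 replicate 2). Csf1, the growth factor of macrophages, was at 61.7, 70.6 and 58.2 against 54.3 and 46.1 TPM and was not called. Among the PD-1 ligands and suppressive enzymes, 4 of 20 tested were higher in MC38 and 0 in CT26.WT. Nos2, the inducible nitric oxide synthase, was at 8.75, 4.34 and 2.01 against 20.4 and 22.98 TPM (-2.07 ± 0.46, adjusted p = 0.015; lost without either MC38 tumor). Lgals9, a galectin, was at 50.99, 55.1 and 54.01 against 145 and 103 TPM (-1.18 ± 0.16, adjusted p = 0.00288; lost without MC38 replicate 2).

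Most matrix genes that were called were higher in MC38. Of 25 fibroblast and interstitial matrix genes 7 were higher in MC38 and 2 in CT26.WT, with a median difference of -0.89. Postn, a matrix protein of activated fibroblasts, was at 7.15, 10.3 and 8.0 against 48.4 and 100.2 TPM (-2.91 ± 0.32, adjusted p = 0.00131). The collagen VI chain gene Col6a3 was at 15.2, 21.4 and 22.9 against 160.2 and 134 TPM (-2.84 ± 0.20, adjusted p = 0.00031). Its partner Col6a2 was at 7.59, 13.2 and 12.2 against 81.6 and 66.3 TPM (-2.67 ± 0.24, adjusted p = 0.000729). Fbn1, the main component of microfibrils, was at 7.71, 12.6 and 7.74 against 40.6 and 64.1 TPM (-2.36 ± 0.28, adjusted p = 0.00167). Of the collagen I genes, Col1a2 was higher in CT26.WT with 448, 497 and 468 against 97.1 and 307 TPM (1.44 ± 0.45, adjusted p = 0.0461). This call was lost without any 1 CT26.WT tumor, without MC38 replicate 2 and after rescaling to protein-coding genes. Col1a1 was at 121, 169 and 132 against 167 and 584 TPM and was not called. Postn, Fbn1, Col1a1 and Col3a1 (137, 202 and 157 against 237 and 759.7 TPM) all stood higher in MC38 replicate 3 than in MC38 replicate 2. Among the proteases, the urokinase gene Plau was higher in CT26.WT with 44.2, 46.5 and 75.9 against 8.45 and 12.3 TPM (2.29 ± 0.28, adjusted p = 0.00184). The stromelysin gene Mmp11 was higher in MC38 with 8.21, 7.63 and 7.9 against 31.6 and 37.7 TPM (-1.99 ± 0.13, adjusted p = 0.000236).

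Of 18 endothelial genes tested 2 were higher in MC38, a share near the 10.8% of all genes, and 0 in CT26.WT. Ramp2, a partner of the adrenomedullin receptor, was at 2.71, 6.02 and 3.6 against 12.5 and 10.8 TPM (-1.35 ± 0.28, adjusted p = 0.0113), and the clotting factor gene Vwf at 0.50, 0.58 and 0.52 against 1.75 and 2.85 TPM (-1.09 ± 0.24, adjusted p = 0.0144). The call of Ramp2 was lost without either MC38 tumor and that of Vwf without MC38 replicate 3. Cdh5, the endothelial cadherin, was at 11.4, 15.7 and 13.7 against 16.8 and 14.9 TPM and Kdr, the main VEGF receptor, at 3.67, 5.48 and 5.63 against 5.28 and 5.81 TPM, and neither was called. Of the 6 genes of the MVD gene score, which the study chose on these samples to follow microvessel density, 5 were tested and 0 were called, with a median difference of -0.16. Of the factors listed as acting on angiogenesis, 6 of 15 tested were higher in CT26.WT and 2 in MC38. The 6 include Thbs2, a relative of the inhibitor gene Thbs1, so the count is not one of activators alone. Fgf1 and Edn1 among the 6 had a mean under 1 TPM in MC38, and Vegfc among the 2 in CT26.WT. These genes were tested only through the other model. Vegfd was at 10.4, 14.4 and 11.8 against 2.1 and 3.65 TPM (1.79 ± 0.23, adjusted p = 0.00208) and the peptide gene Apln at 31.01, 22.9 and 30.1 against 8.56 and 8.02 TPM (1.63 ± 0.16, adjusted p = 0.000948). The lymphangiogenic Vegfc was higher in MC38 with 0.50, 0.62 and 0.40 against 5.35 and 3.14 TPM (-1.77 ± 0.25, adjusted p = 0.00313). The angiogenesis inhibitor gene Thbs1 was also higher in MC38 with 14.4, 16.1 and 10.6 against 55.7 and 80.4 TPM (-2.23 ± 0.23, adjusted p = 0.00109). Vegfa was at 162, 88.99 and 84.9 against 66.6 and 48.9 TPM and was not called (0.90 ± 0.31, adjusted p = 0.0634). Of 10 pericyte and smooth muscle genes tested 1 was higher in CT26.WT and 0 in MC38. This was the pericyte gene Rgs5 (7.84, 11.8 and 8.06 against 2.92 and 3.56 TPM, 1.25 ± 0.21, adjusted p = 0.00512; lost without MC38 replicate 2). At day 8, 0 of 10 were higher in CT26.WT and 2 in MC38, or 1 in each after rescaling to protein-coding genes.

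Basement membrane genes and proteases were higher in CT26.WT for 4 of 20 tested and in MC38 for 2. The laminin chain gene Lama5 was at 74.9, 74.5 and 87.6 against 26.7 and 26.1 TPM (1.54 ± 0.12, adjusted p = 0.000433). Of 22 hypoxia and glycolysis genes 3 were higher in CT26.WT and 2 in MC38, with a median difference of 0.28. These counts are near the shares over all genes (9.22% and 10.8%), so the genes below are given as single genes. The hypoxia-induced Ndrg1 was at 286, 128 and 168 against 52.8 and 44.03 TPM (1.90 ± 0.33, adjusted p = 0.00642; lost without either MC38 tumor). The glycolytic enzyme gene Pfkp was higher in MC38 with 37.7, 32.6 and 25.2 against 90.3 and 86.3 TPM (-1.46 ± 0.18, adjusted p = 0.00194). CT26.WT replicate 1 held the highest level of both Vegfa and Ndrg1.

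Lists for other host tissue in the sample were checked as well. Skeletal muscle genes varied within CT26.WT, with a summed level of 2.05, 42.2 and 163 TPM there and 146 and 82.6 TPM in MC38. Of 11 tested 1 was called, Actn3 (0.11, 0.25 and 1.07 against 2.68 and 1.63 TPM, -1.13 ± 0.35, adjusted p = 0.045), and its call was lost without any single tumor other than CT26.WT replicate 3. Of 4 adipocyte genes tested 1 was higher in MC38, the adipokine gene Cfd (0, 2.13 and 1.81 against 10.01 and 20.5 TPM, -2.90 ± 0.56, adjusted p = 0.00901; lost without MC38 replicate 3). The fat cell marker gene Fabp4 was at 19.7, 26.8 and 27.6 against 17.5 and 16.8 TPM. Of 5 red blood cell genes tested 1 was higher in MC38 (Hbb-bt, whose call was lost without CT26.WT replicate 3 or either MC38 tumor) and 4 at day 8, when their summed level was 96.1 to 155 TPM in CT26.WT and 221, 671 and 1196 TPM in MC38. Of 13 dendritic cell genes tested 1 was higher in each model, Cacnb3 in CT26.WT (20.7, 22.01 and 22.8 against 9.74 and 8.96 TPM) and Fscn1 in MC38 (82.5, 88.3 and 92.97 against 234 and 199 TPM). Fscn1 encodes an actin-bundling protein that tumor cells also express. The 1 gene tested of 6 Schwann and nerve cell genes (Mbp, 1.52, 2.31 and 1.74 against 2.03 and 2.64 TPM) was not called.

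**Figure D4:**
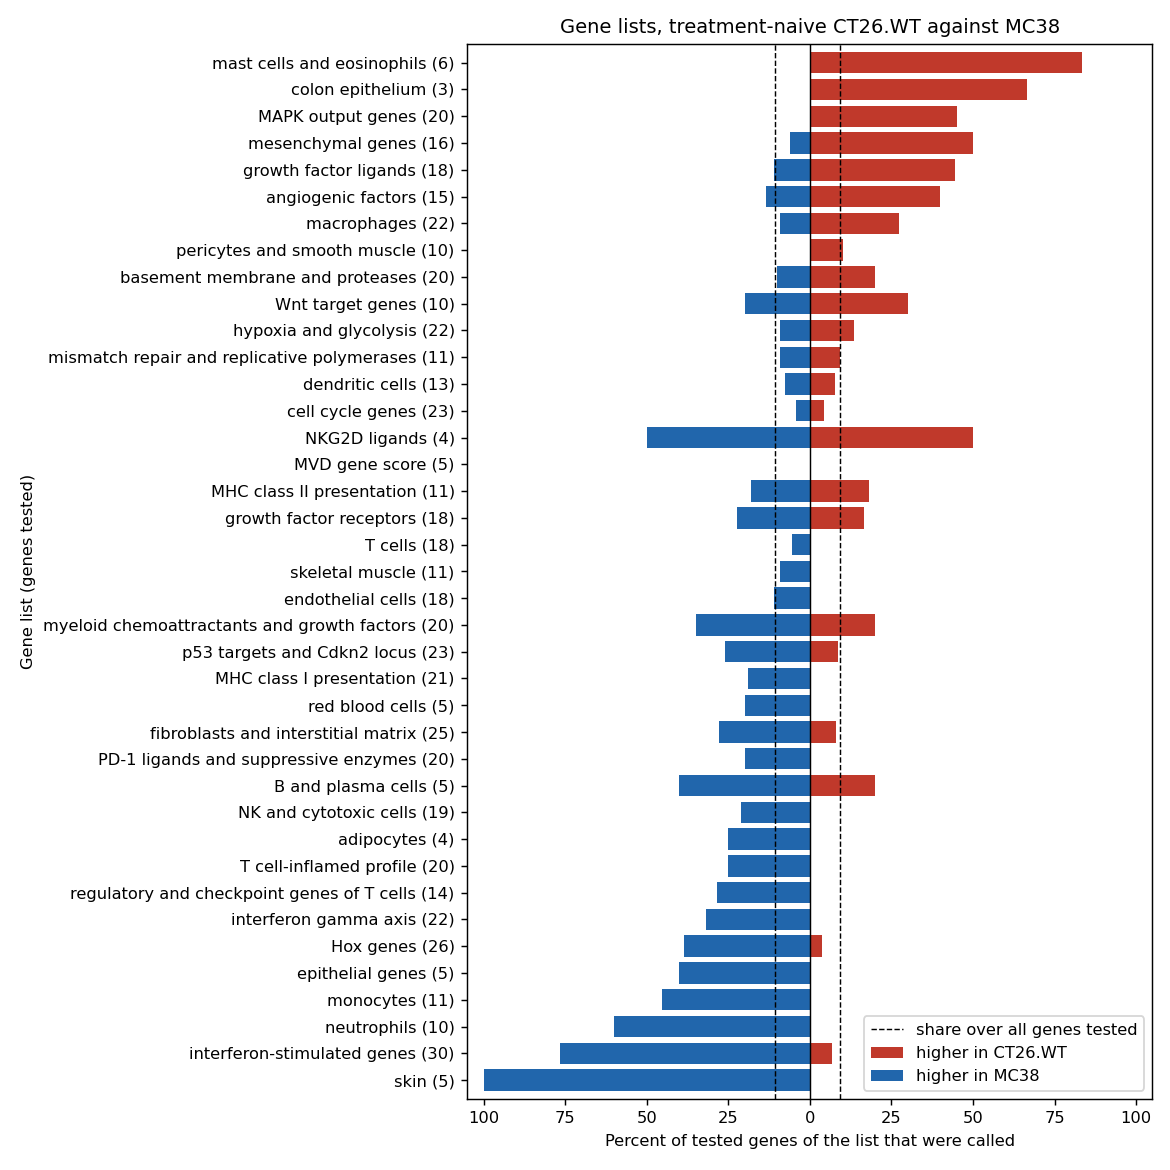
Percent of the tested genes of each list that were higher in CT26.WT (red, to the right) or in MC38 (blue, to the left) in treatment-naive tumors, for lists with at least 3 genes tested, with that number in parentheses. The dashed lines mark the shares over all 16502 genes, 9.22% and 10.8%. Mast cell genes (5 of 6) and colon epithelium genes (2 of 3) reach furthest right, and skin genes (5 of 5) and ISGs (23 of 30) furthest left. Of the genes behind these bars, 3 of the 5 skin genes and 0 of the 23 ISGs had a mean under 1 TPM in CT26.WT, and 1 of the 5 mast cell and 1 of the 2 colon epithelium genes in MC38.

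Host strain was set beside the models by using 7 other models in BALB/c or C57BL/6 hosts. The LL/2 hosts were of another substrain (C57BL/6JCrl) than those of MC38 and B16-F10 (C57BL/6NCrl), and the BNL 1ME A.7R.1 hosts were male. Of the 3310 genes called, 247 (7.46%) also separated, without overlap and in the same direction, the 15 tumors of the 5 other BALB/c models from the 6 tumors of B16-F10 and LL/2, and 63 (1.90%) separated them in the opposite direction. Of all genes tested 5.13% separated these tumors in either direction. The 247 genes comprised 145 higher in CT26.WT and 102 higher in MC38. Among the 30 genes with the largest differences 9 were of this kind: Gm10260, Eno1b, Ifi202b, Gm11127 and Gbp2b in CT26.WT and Xlr3c, Trim12a, Gvin1 and Klra4 in MC38. Trim12a, a TRIM family gene, was listed at 0 in CT26.WT and was at 30.2 and 33.9 TPM in MC38. It was at most 0.27 TPM in the other BALB/c tumors and 2.46 to 7.47 TPM in the other C57BL/6 tumors. Gbp2b, an interferon-induced GTPase, was at 133, 137 and 86.95 against 3.02 and 4.13 TPM, with 4.59 to 81.6 TPM in the other BALB/c and 0.08 to 0.17 TPM in the other C57BL/6 tumors. Hoxc6, Nrg1, Ulbp1, H2-Ea-ps, H2-DMb2, Ccl12, Col1a2, Cacnb3 and Per3, all higher in CT26.WT, were also of this kind. Baiap2l1, Prl2c2, Rsad2, Spry4 and Tpsab1 were not.

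In the separate day 8 tumors, 1135 of 16021 genes (7.08%) were higher in CT26.WT and 2590 (16.2%) in MC38, with a median difference of -0.30 over all genes. Protein-coding genes took 44.7% to 50.9% of the TPM in CT26.WT and 56.4% to 62.4% in MC38 at day 8, and after rescaling to the protein-coding total the counts were 1621 (10.1%) and 1580 (9.86%), with a median of -0.03. Of the 3310 genes called in treatment-naive tumors 3160 were tested at day 8, of which 3127 had the same direction, 2520 were also called in that direction and 1 was called in the opposite direction. The 1 gene in the opposite direction was the miRNA gene Gm23413. At day 8 Baiap2l1 was at 410.0, 429 and 406 TPM in CT26.WT and 2.29, 1.87 and 2.1 TPM in MC38, and Prl2c2 at 0.41, 0.66 and 0.54 against 1012, 1161 and 1098 TPM. Rsad2 was at 7.15, 11.3 and 3.77 against 174, 165 and 165 TPM and Spry4 at 47.6, 49.6 and 50.97 against 4.65, 4.21 and 4.48 TPM. Each of these genes kept its order, with no overlap. The counts of some other lists differed at day 8, and are to be read beside the day 8 shares over all genes given above. The cell cycle genes had 0 higher in CT26.WT and 4 in MC38 of 23. After rescaling they had 1 in each, as in treatment-naive tumors. The growth factor receptors had 3 and 5 of 18, or 4 and 2 after rescaling, and the dendritic cell genes 0 and 2 of 10, or 0 and 1.

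CT26.WT replicate 5 stood apart at day 8 in immune genes. It held 0.70 TPM of Cd3e against 6.49 and 8.22 TPM in the other two, 73.8 TPM of Cd74 against 379 and 554 TPM, and 5.45 TPM of Cxcl9 against 43.8 and 71.03 TPM. Baiap2l1 and Spry4 did not show this, with 406 and 50.97 TPM in that tumor. Without it the day 8 counts were 1161 and 2611 genes.

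The difference between the models changed between the times for 9 of 16306 genes (0.0552%, limma interaction, adjusted p under 0.05). Among these were the clock repressors Nr1d1 and Nr1d2. Nr1d1 was at 55.7, 46.04 and 52.9 against 9.5 and 7.41 TPM in treatment-naive tumors and at 15.8, 16.2 and 10.04 TPM in CT26.WT and 9.24, 10.6 and 11.3 TPM in MC38 at day 8.

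**Figure D5:**
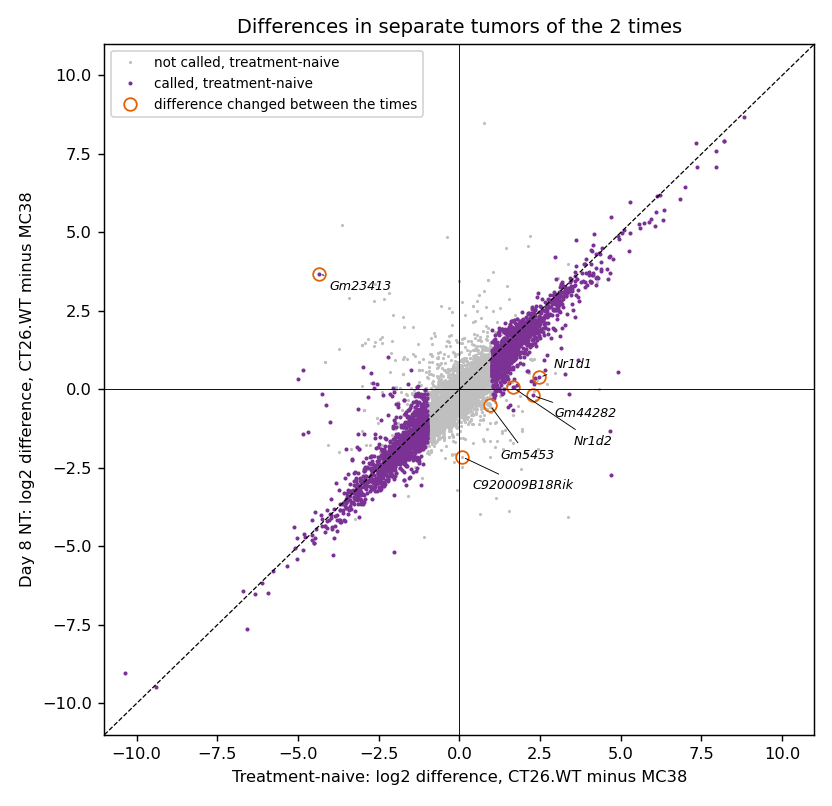
Log2 difference (CT26.WT minus MC38) of each gene tested at both times in day 8 NT tumors (vertical) against treatment-naive tumors (horizontal), with genes called in treatment-naive tumors in purple and the others in gray. The dashed line is equality, and circles mark 6 of the 9 genes whose difference changed between the times; most purple points lie near the dashed line, and Gm23413 lies far from it.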

How the data were processed

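RNA was extracted from whole tumors, depleted of ribosomal RNA and sequenced on 2 kinds of instrument, with no map from instrument to tumor in the sources used here. Per the labels, the authors trimmed reads with Trimmomatic 0.36, aligned them with STAR 2.5.2b to the mouse genome (GRCm38) and estimated gene levels with RSEM 1.2.31; the deposited values are TPM per tumor for 50686 genes, with no counts. Gene symbols, types and coordinates came from GENCODE M21 (50462 genes matched). Groups were taken from the labels.

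TPM were transformed to log2(TPM + 1), genes with a mean of at least 1 TPM over the compared tumors were kept, and CT26.WT was compared with MC38 with limma 3.58.1 in R 4.3.3 (empirical Bayes with a mean-variance trend, Benjamini-Hochberg adjustment, two-sided). On simulated data with the same means and spreads (16502 genes, 200 of them changed), 38% of genes changed by a log2 of 1 and 98% of those changed by a log2 of 2 were called, and 8.73% of calls fell on unchanged genes. In the real comparison 6989 genes had a limma adjusted p under 0.05. The adjusted cutoff is stricter when few genes change, so these rates do not carry over to the real comparison. Alternatives were another pseudocount (0.1), no minimum or a minimum of 5 TPM, rescaling over the upper quartile or over protein-coding genes, no trend, other sets of tumors in the fit, the replicate number as a block and leaving out each tumor.

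The models and the gene lists were chosen with earlier results of these data known, and no list is independent support for its direction. Named were the 15 protein-coding genes with the largest called difference each way whose groups did not overlap, up to 4 called and 2 other genes per list, the 10 called list genes with the highest mean TPM, and protein-coding genes whose difference changed between the times. Outside this rule, the other genes named (among them Adgre1, Cd3e, Cd8a, Cdh1, Cdkn1a, Cdx2, Col1a1, Cxcl9, Dusp4, Dusp6, Epcam, Foxp3, Hoxa11, Hoxc6, Ifi27l2a, Ifit3, Kdr, Lgr5, Mdm2, Met, Ms4a1, Nrg1, Vil1, the parent genes of copies, and members listed by name only) were chosen after their values were seen, as were the lists of clock and mitochondrial genes. Values of some single genes are not reported here; they remain in all counts.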

Additional observations from a re-analysis of the deposited data

Results flagged for a closer look

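For 9 genes the difference between CT26.WT and MC38 changed between treatment-naive and day 8 tumors, by limma's interaction term over 16306 genes (adjusted p under 0.05, change given as the day 8 minus the treatment-naive log2 difference), while 2674 genes had an unadjusted p under 0.05. Among them were the protein-coding genes Nr1d1 with a change of -2.10 ± 0.26 (SE, adjusted p = 0.0263) and Nr1d2 with -1.59 ± 0.18 (adjusted p = 0.0174). A further 6 were short non-coding or pseudogene transcripts, whose cause of change was not tested: C920009B18Rik (-2.23), Gm44282 (-2.46), Gm5453 (-1.44), the miRNA gene Gm23413 (8.04), Gm21769 (5.01) and Gm27849 (4.09). Gm21769 and Gm27849 were listed at 0 in the treatment-naive CT26.WT tumors and in the 6 day 8 tumors of both models, so the size of their change depends on the pseudocount.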

How the results depend on the processing

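The counts of 1522 genes higher in CT26.WT and 1788 higher in MC38 fell to 956 and 1075 with a minimum mean of 5 TPM, where fewer genes were tested, and the day 8 count higher in CT26.WT fell from 1135 to 647. Rescaling over protein-coding genes lowered the day 8 count higher in MC38 from 2590 to 1580 and moved the share of calls higher in CT26.WT from 30.5% to 50.6%. Leaving out 1 tumor gave 1437 to 1538 genes higher in CT26.WT and 1385 to 1876 higher in MC38, and at day 8 1102 to 1202 and 2396 to 2861. The count of called genes that also separated the strains (247) ran from 166 to 264 over all alternatives, and the count of genes that changed between the times from 7 to 11. None of the called genes among those the naming rule chose reversed its direction. Of the genes not called, 18 (log2 differences of -0.40 to 0.21) changed sign in some alternative. Leaving out 1 tumor moved the log2 difference as follows: Esrp2 (-0.72 to 0.45), Cd44 (-0.36 to 0.11), Fosl1 (-0.16 to 0.0912), Pcna (-0.15 to 0.25), Mcm7 (-0.28 to 0.0174), B2m (-0.53 to 0.12), Cd74 (-0.18 to 0.62), Trbc2 (-0.34 to 0.35) and Igkc (-0.52 to 0.17). The other genes were Ccr2 (-0.0439 to 0.38), Wdfy4 (-0.44 to 0.71), Plvap (-0.00214 to 0.19), Vegfb (-0.16 to 0.13), Sparc (-0.45 to 0.15), Hba-a2 (-0.51 to 0.0252), Hbb-bs (-0.46 to 0.0605), Xist (-0.0974 to 0.29) and H2-Aa (-0.83 to 0.0651). With the replicate block Trbc2 was at -0.15, Hba-a2 at 0.0252 and Hbb-bs at 0.0605, and after upper-quartile rescaling Trbc2 was at -0.00171. Of 229 named genes tested 155 were called, and 86 of these kept the call under every alternative. The most calls were lost with a minimum of 5 TPM (41), without MC38 replicate 2 (33) and without MC38 replicate 3 (26).

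The replicate numbers are shared between the models, but the tumors are from different mice, and same-numbered tumors did not deviate together (r = -0.139 and -0.0988), so the numbers give no pairing. With the replicate block the counts were 1370 and 1565. At day 8 no paired analysis was possible because the columns share only replicate number 3 and other numbers fall in 1 model. With 3 and 2 tumors, TPM without depth, and 1 cell line per strain, small differences and differences of low genes are limited most.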

Other observations

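Circadian clock genes, a list chosen after values were seen, stood higher in CT26.WT among treatment-naive tumors. Of 14 tested, 8 were higher in CT26.WT, 1 (Cry1) in MC38, and 5 were not called, with a median difference of 1.11 beside -0.10 over all genes. Dbp, a clock output transcription factor, was at 54.1, 57.3 and 69.2 TPM in CT26.WT and 4.05 and 3.44 TPM in MC38 (3.68 ± 0.15, limma adjusted p = 6.69e-05), and Tef, its relative, at 42.9, 53.1 and 49.5 TPM in CT26.WT and 4.93 and 8.57 TPM in MC38 (2.71 ± 0.22, adjusted p = 0.000513). Per3 was at 13.4, 15.3 and 13.6 TPM in CT26.WT and 2.98 and 3.81 TPM in MC38 (1.79 ± 0.14). At day 8 Dbp was at 5.80, 9.28 and 2.64 TPM in CT26.WT and 2.38, 2.11 and 2.5 TPM in MC38, and 1 of 13 clock genes was higher in CT26.WT and 1 in MC38 (5 and 1 after rescaling to protein-coding genes). The hour of collection is not given in the sources used here, and its part in these values was not tested.

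The 13 proteins encoded by the mitochondrial genome, also chosen after values were seen, had a median difference of 0.89 with 3 called (mt-Nd1, mt-Nd4 and mt-Cytb), and a median of -0.22 with 0 called at day 8. Their summed level was 26497, 25216 and 28172 TPM in CT26.WT against 23528 and 10277 TPM in MC38, so that MC38 replicate 3 stood apart and MC38 replicate 2 lay close to CT26.WT. All 3 calls were lost without MC38 replicate 3, and also without any single CT26.WT tumor. Over protein-coding genes tested, chromosome 11 had the lowest median of the nuclear chromosomes, -0.56 over 1055 genes of which 80.9% were lower in CT26.WT, beside -0.16 over all 12539. At day 8 after rescaling it was -0.46 beside -0.08. The medians of chromosomes 8 (-0.37) and 15 (0.30) were the next lowest and the highest, and the copy number of these chromosomes was not measured.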
